A study of Mus musculus with 3 samples.

Results

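The colony stimulating factors and their receptors were followed in non-lesional and wounded mouse skin, as 7 genes chosen by name out of 27998 genes in the count tables. The 3 ligand genes were Csf1 (M-CSF), Csf2 (GM-CSF) and Csf3 (G-CSF), and the 4 receptor genes were Csf1r, Csf2ra, Csf2rb and Csf3r. All cells came from dorsal skin of male C57BL/6 mice of 7 to 9 weeks, wounded in the telogen (resting) phase of the hair cycle with a full-thickness excision of 1.0 by 0.5 cm on each side. There were 3 groups: non-lesional skin, and the wound bed taken 2 or 7 days after wounding (day 2 and day 7 below). The labels name no genetic change or drug. Each group was 1 droplet-based 3′ single-cell library of cells freed with collagenase D and DNase1, and the sources used here do not say how many mice each library pooled. With 1 library per group no difference between groups could be tested, and every interval below covers counting error only.

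Csf1 signals through the receptor tyrosine kinase encoded by Csf1r, which most tissue macrophages and their monocyte precursors need to survive and divide. Csf2 binds a receptor made of a ligand-specific alpha chain (Csf2ra) and a signalling beta chain (Csf2rb) that is shared with the receptors for IL-3 and IL-5, and it supports monocytes, dendritic cells and alveolar macrophages. Csf3 acts through Csf3r on neutrophils and their precursors, driving their production in bone marrow and their release into blood.

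The libraries held 123088680, 138046172 and 102345327 UMIs (unique molecular identifiers, each standing for 1 captured RNA molecule) for non-lesional skin, day 2 and day 7, and 9403, 7392 and 4841 cells were kept. Each pair of libraries shared 14 to 24 cell barcodes. Cells were grouped by clustering, without use of the 7 genes, and the groups were named from marker genes, of which no more than 1 per list was at 0 in any class of at least 50 cells. The groups are called fibroblast-like and so on because the names were rebuilt here. Fibroblast-like cells numbered 6445, 4113 and 2373, neutrophil-like cells 6, 2037 and 177, monocyte- or macrophage-like cells 49, 360 and 317, dendritic-like cells 120, 550 and 331, and lymphoid-like cells, a class marked by genes of T cells, natural killer cells and innate lymphocytes, 434, 178 and 680. The day 2 wound bed held 1 keratinocyte-like cell, against 1529 in non-lesional skin and 91 at day 7. Median depth differed between groups, at 9301, 26195 and 26431 UMIs per fibroblast-like cell and 887 and 1168 UMIs per neutrophil-like cell at day 2 and day 7, so levels are given as UMIs of a gene per 1000000 UMIs of the class (CPM), and shares of cells also after thinning each cell to 1000 UMIs. A level is compared between libraries for 1 gene, and between genes only in rank, since 3′ counts were not scaled by length.

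In the GRCm38 genome with GENCODE M21 annotation, Csf1 lies at chr3:107741048-107760469 on the minus strand. Csf2 lies at chr11:54247271-54249667 (minus strand) and Csf3 at chr11:98701263-98703629 (plus strand). Among the receptor genes, Csf2ra lies at chr19:61223957-61228429 (minus strand), Csf2rb at chr15:78325752-78353847 (plus strand) and Csf3r at chr4:126024550-126044440 (plus strand). RefSeq promoter windows (GRCm38.p6) were found for 4 of the 7 genes. The windows of Csf1 and Csf2 are shown because the levels of these 2 ligands in fibroblast-like cells differed in opposite directions between wounded and non-lesional skin. Capitals mark the only match in each window to the motifs searched, and each sequence ends at the base before the RefSeq start of transcription.
Csf1 promoter, chr3:107760470-107760719, minus strand: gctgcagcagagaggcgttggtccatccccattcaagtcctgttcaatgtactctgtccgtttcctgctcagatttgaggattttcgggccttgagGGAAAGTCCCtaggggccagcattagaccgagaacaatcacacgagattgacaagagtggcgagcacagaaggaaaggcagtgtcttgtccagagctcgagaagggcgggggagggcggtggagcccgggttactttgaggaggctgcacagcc
Csf2 promoter, chr11:54249900-54250149, minus strand: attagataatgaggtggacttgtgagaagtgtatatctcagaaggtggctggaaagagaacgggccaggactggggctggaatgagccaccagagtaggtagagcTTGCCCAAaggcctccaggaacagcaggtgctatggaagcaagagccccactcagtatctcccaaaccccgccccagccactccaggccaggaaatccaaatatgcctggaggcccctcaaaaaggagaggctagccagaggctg
In the Csf1 window the capitals match the NF-kappaB motif, 154 to 145 bases before the start, read on the strand opposite to the gene. In the Csf2 window they match the C/EBP motif TTGCNNAA, 145 to 138 bases before the RefSeq start, which lies 232 bases upstream of the GENCODE start. The bases between these Csf2 starts were not searched. The NF-kappaB motif was present in 3.9% and TTGCNNAA in 9.56% of 32851 promoter windows of 250 bases. The other motifs searched on both strands were AP-1 (TGANTCA, in 6.75% of windows), CRE (TGACGTCA, 1.55%), the PU box (GAGGAA, 23.3%) and the TATA box (TATAAA, 12.4%), and no matches overlapped. Of the other windows, that of Csf2ra held 1 match, to CRE, and that of Csf3r held none. These matches describe letters in the windows and nothing about binding.

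Across all kept cells, Csf1 was the most abundant of the ligand transcripts in UMIs in non-lesional skin, with 24806 UMIs against 260 of Csf2 and 142 of Csf3. In the day 2 wound bed the counts were 28741 of Csf1, 7598 of Csf2 and 18512 of Csf3, and at day 7 they were 8733, 1308 and 1265. Among the receptors, Csf1r gave 3385, 3142 and 1666 UMIs in non-lesional skin, day 2 and day 7, Csf2ra 470, 1843 and 1499, Csf2rb 219, 1643 and 2276, and Csf3r 26, 1326 and 288. Fibroblast-like cells held most of the ligand UMIs in the wound: 93.4% of Csf1, 98.4% of Csf2 and 93.5% of Csf3 at day 2, and 86.1%, 87.7% and 73.7% at day 7. In non-lesional skin they held 97% of the Csf1 UMIs, while lymphoid-like cells held 77.7% of those of Csf2 and lymphatic endothelial-like cells 70.4% of those of Csf3. Of the receptors, Csf3r and Csf2rb lay mostly elsewhere at day 2, with 83.1% of Csf3r in neutrophil-like cells and 55.9% of Csf2rb in dendritic-like cells. For Csf2ra, fibroblast-like cells held 706 UMIs and neutrophil-like cells 666 at day 2. At day 7 fibroblast-like cells held 520 Csf2ra UMIs and monocyte- or macrophage-like cells 418. Csf1r was divided differently in each library, since fibroblast-like cells held 90.7% of its UMIs in non-lesional skin, 88.8% at day 2 and 32.6% at day 7, when monocyte- or macrophage-like cells held 45.7%. These shares depend on how many cells of each class were captured and on their depth as well as on the level per cell.

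**Figure D1:**
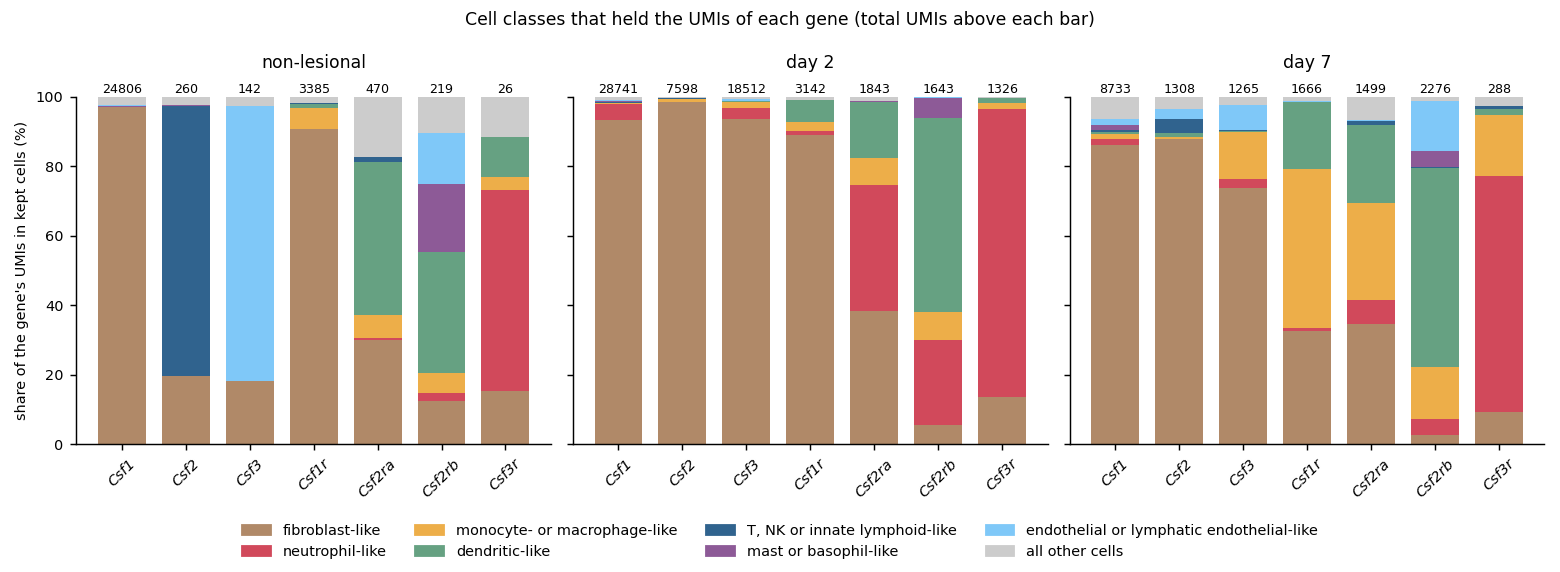
Share (%) of each gene's UMIs held by each cell class, in 1 panel per library, with the gene's total UMIs in kept cells above its bar. Fibroblast-like cells held most of the UMIs of all 3 ligands at day 2 (93.4% to 98.4%), whereas the Csf3r and Csf2rb bars were mostly neutrophil-like and dendritic-like there.

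Csf1, the macrophage growth factor, was present in fibroblast-like cells of every library and lower in both wound libraries. Its level was 381 CPM (95% interval 376 to 386) in non-lesional skin, 238 CPM (235 to 241) at day 2 and 109 CPM (107 to 112) at day 7. The 3 intervals did not overlap, and the day 2 level was 0.625 times and the day 7 level 0.287 times the non-lesional level (0.614 to 0.636 and 0.28 to 0.295). After thinning, 27.5%, 17.5% and 8.84% of fibroblast-like cells had a Csf1 UMI. The unthinned shares of 75.9%, 85.2% and 67% do not follow this order, as cells of the wound libraries were deeper.

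The non-lesional fibroblast-like cells were not uniform for Csf1. Their cluster led by Smpd3, Efhd1 and Sult1e1 (1633 cells) had 685 CPM (672 to 699), and the cluster led by Myoc, Hmcn2 and Inmt (1124 cells) had 518 CPM (502 to 535). The clusters led by Pla2g2e, Gal and Cdh4 (2132 cells) and by C6, Tnmd and Acacb (929 cells) had 269 and 279 CPM, and the one led by Coch, Lepr and Pianp (616 cells) had 86 CPM (77.3 to 95.3). Levels within 1 library thus ranged more widely than the class level ranged between libraries. Nearly every cluster belonged to 1 library, and the day 2 clusters led by Cxcl14, Saa3 and Cxcl13 (2374 cells) and by Il11, Thbd and Lmcd1 (1705 cells) had 198 and 287 CPM. At day 7 the cluster led by Prss35, Tnn and Brinp3 (1460 cells) had 81.1 CPM (78.7 to 83.6) and the one led by Dlk1, Mgp and H19 (599 cells) had 237 CPM (228 to 245). Without the cluster led by Smpd3, the ratios to non-lesional skin were 0.813 at day 2 and 0.373 at day 7, so a lower value remained in both.

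Haematopoietic cells of the wound also held Csf1. Neutrophil-like cells had 619 CPM (586 to 654) at day 2 and 673 CPM (571 to 787) at day 7, above the fibroblast-like level of the same library, and their ratio was 1.09 (0.914 to 1.28). Collagen transcripts, which neutrophils do not make, stood in day 2 neutrophil-like cells at 12.1% to 17.1% of their fibroblast-like level (Col1a1, Col1a2 and Col3a1), while Csf1 stood at 260%. In the 104 day 2 neutrophil-like cells with no UMI of these collagens the Csf1 level was 641 CPM (489 to 825), against 618 CPM (584 to 654) in the 1933 with one. Mast or basophil-like cells were few, with 53 Csf1 UMIs in 15 of 36 cells of non-lesional skin, 150 in 23 of 33 at day 2 and 104 in 21 of 32 at day 7, which correspond to 608, 1504 and 812 CPM. These were the highest Csf1 levels of any class with at least 30 cells, although at day 7 the interval (663 to 984) overlapped that of neutrophil-like cells. Pericyte or smooth muscle-like cells had 37.6 CPM (27.9 to 49.6) in non-lesional skin and 119 CPM (108 to 132) at day 7, a ratio of 3.17 (2.36 to 4.35). The fibroblast-like ratio of the same pair was 0.287. Of the 234 non-lesional pericyte or smooth muscle-like cells, 222 belonged to the cluster led by Pln, Sorbs2 and Nrip2. Of the 192 at day 7, 171 belonged to that led by Rgs5, Higd1b and H2-M9. The ratio of 3.17 therefore compares cells of different clusters. Il34, which encodes the second ligand of the Csf1 receptor, stood at 46.9 CPM in non-lesional keratinocyte-like cells. Pericyte or smooth muscle-like cells had 35.4 CPM of it in non-lesional skin and 97.3 CPM at day 7, again mostly from different clusters.

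**Figure D2:**
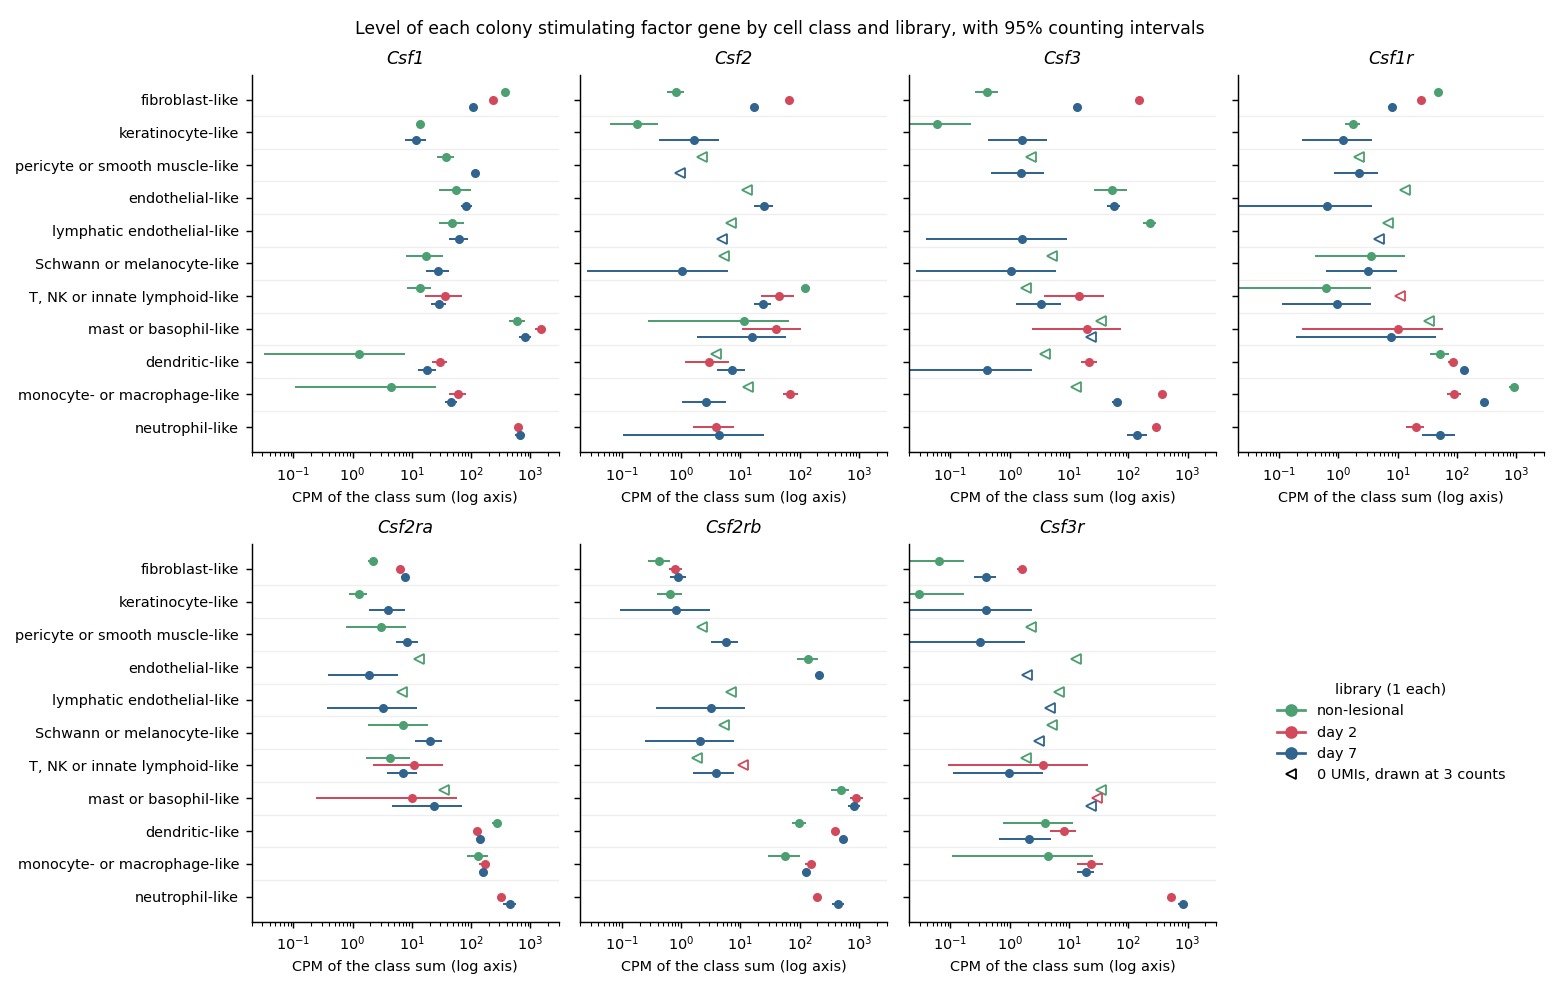
Level (CPM of the class sum, log axis) of each gene in every class of at least 30 cells, with points for the 3 libraries, 95% counting intervals and open triangles for 0 UMIs at the level of 3 counts; intervals below 0.02 CPM run off the axis. Csf1 in fibroblast-like cells lies between 381 and 109 CPM, and neutrophil-like cells are at 619 and 673 CPM in the wound libraries.

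Csf2, made in many tissues by activated lymphocytes and stromal cells, was held by different classes in non-lesional and wounded skin. In lymphoid-like cells its level was 125 CPM (108 to 143) in non-lesional skin, 44.1 CPM (22.8 to 77) at day 2 and 24 CPM (17.8 to 31.7) at day 7. In fibroblast-like cells it was 0.807 CPM (0.601 to 1.06), 66.3 CPM (64.9 to 67.9) and 16.7 CPM (15.7 to 17.7). The order of the libraries was thus opposite in these 2 classes for non-lesional skin, which had the highest lymphoid-like and the lowest fibroblast-like level. The day 2 ratio to non-lesional skin was 82.2 (62.4 to 110) in fibroblast-like cells and 0.353 (0.179 to 0.63) in lymphoid-like cells, and the day 7 ratios were 20.7 (15.6 to 27.9) and 0.193 (0.138 to 0.264).

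The 51 Csf2 UMIs of non-lesional fibroblast-like cells lay in 5 of 6445 cells, and 50 of them in the cluster led by Smpd3. At day 2, 1043 of 4113 fibroblast-like cells had a Csf2 UMI (25.4%, and 4.41% after thinning). In neutrophil-like cells of the same library, which had 8 UMIs, the share was 0.393%, at a median of 887 UMIs per cell against 26195, and 0.371% after thinning. The day 2 cluster led by Il11, a cytokine of the IL-6 family, had 121 CPM (118 to 124) and the one led by Cxcl14 had 20.8 CPM (19.7 to 22). Among day 7 clusters, that led by Dlk1 had 82.3 CPM (77.2 to 87.6) and that led by Prss35 had 2.55 CPM (2.14 to 3.02). Csf2 was therefore concentrated in 1 of the main fibroblast-like clusters of each wound library. It was also concentrated in few cells, as 10% of the day 2 fibroblast-like cells (411 cells) held 83.1% of its UMIs and 1 cell held 107.

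Within lymphoid-like cells Csf2 lay mostly in the cluster led by Cxcr6, Ikzf3 and Gimap3, at 228 CPM (196 to 263) in 219 non-lesional cells, 64 CPM (33.1 to 112) in 132 day 2 cells and 49.5 CPM (35.5 to 67.1) in 335 day 7 cells. The cluster led by Ctla4, Foxp3 and Icos, genes of regulatory T cells, had 0 Csf2 UMIs in 34 non-lesional and 45 day 2 cells and 3 UMIs in 284 day 7 cells. This cluster made up more of the lymphoid-like class at day 7 than in the other libraries, so the class levels combine cells of different kinds. Of the 44 non-lesional lymphoid-like cells with Csf2, 65.9% had a UMI of Gata3, a transcription factor of type 2 lymphocytes, against 36.9% of the other 390, and 25% against 13.1% had a UMI of Il17a. None of the 44 had a UMI of Foxp3, Cd4 or Cd8a, which were present in 3.59%, 5.13% and 1.54% of the others.

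Other classes held few of the Csf2 UMIs. Monocyte- or macrophage-like cells had 70 CPM (53.5 to 90.2) at day 2, from 60 UMIs in 21 of 360 cells, and 2.65 CPM (1.07 to 5.47) at day 7, a ratio of 0.0379 (0.0146 to 0.083). The day 2 interval overlapped that of fibroblast-like cells. No UMI was found in the 49 non-lesional cells of that class, which allows up to 13.2 CPM. Dendritic-like cells had 7 UMIs at day 2 and 17 at day 7, the latter all in 1 cell. Endothelial-like cells of day 7 had 25.1 CPM (17.9 to 34.3), from 39 UMIs in 4 of 133 cells, and erythroid-like cells had 35.9 CPM from 36 UMIs, both above the 16.7 CPM of fibroblast-like cells. Erythroid-like cells of day 7 also had 64.8 CPM of Csf1 and 14 CPM of Csf3. The part of RNA from other cells in these erythroid-like levels was not tested.

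Csf3, the neutrophil growth factor, showed the widest difference between libraries of the 7 genes in fibroblast-like cells. Its level there was 0.412 CPM (0.269 to 0.603) in non-lesional skin, 154 CPM (151 to 156) at day 2 and 13.6 CPM (12.7 to 14.5) at day 7. The 26 non-lesional UMIs came from 2 of 6445 cells in the cluster led by Myoc, whereas 1810 of 4113 cells (44%, and 10.3% after thinning) had a UMI at day 2 and 169 of 2373 (7.12%, and 1.03%) at day 7. For comparison, day 2 lymphoid-like cells (median 1165.5 UMIs against 26195) had 4 UMIs in 178 cells (2.25%, and 1.74% after thinning). The day 2 over non-lesional ratio of 373 (255 to 572) rests on those 26 UMIs, and it was 206 with cells thinned to 1000 UMIs and 110 with 1 CPM added to both levels. The day 7 level was 32.9 times (22.3 to 50.7) the non-lesional one and 0.0882 times (0.0825 to 0.0942) the day 2 one.

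The day 2 cluster led by Il11 had 265 CPM of Csf3 (260 to 269) and the one led by Cxcl14 had 61.3 CPM (59.4 to 63.3), in the same order as for Csf2 and Csf1. At day 7 the cluster led by Dlk1 had 48.3 CPM (44.4 to 52.4) and the one led by Prss35 had 6.6 CPM (5.93 to 7.33). The 3 ligands were therefore each highest in the same cluster of each wound library. In single day 2 fibroblast-like cells, 56.6% of those with Csf2 had a UMI of Csf3 against 39.7% of those without, and 28.2% of those with Csf1 had Csf2 against 8.87% of those without. These shares are a description, since deeper cells have more UMIs of every gene.

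In CPM, Csf3 was higher in neutrophil-like and in monocyte- or macrophage-like cells than in fibroblast-like cells of the wound. Dendritic-like cells were below fibroblast-like cells, with 21.9 CPM (16.3 to 28.8) at day 2 and 1 UMI at day 7. Monocyte- or macrophage-like cells had 370 CPM (330 to 413) at day 2 and 65.2 CPM (55.8 to 75.7) at day 7, and 0 UMIs in the 49 non-lesional cells. Neutrophil-like cells had 292 CPM (270 to 316) at day 2 and 143 CPM (98.6 to 201) at day 7, and 0 UMIs in the 6 non-lesional cells. Both classes were lower at day 7, with ratios of 0.176 (0.145 to 0.213) and 0.49 (0.334 to 0.696). The collagens stood in day 2 monocyte- or macrophage-like cells at 11% to 13.9% of their fibroblast-like level and Csf3 at 241%, and in neutrophil-like cells Csf3 stood at 190%. Day 2 neutrophil-like cells without a collagen UMI had 374 CPM (260 to 520) of Csf3 and those with one had 288 CPM (265 to 313). Of the monocyte- or macrophage-like cells, 352 of 360 at day 2 and all 317 at day 7 had a collagen UMI. Too few were left without one for the same split.

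Vessel cells held Csf3 as well, in small numbers of cells. Lymphatic endothelial-like cells had 100 UMIs in 10 of 46 non-lesional cells, 80 in 5 of 10 at day 2 and 1 in 50 at day 7. Endothelial-like cells had 12 UMIs in 4 of 34 cells, 32 in 5 of 9 and 89 in 20 of 133, the last at 57.3 CPM (46 to 70.6). The non-lesional lymphatic UMIs made up most of the Csf3 of that library, and the small classes allow no statement on how these levels differ.

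**Figure D3:**
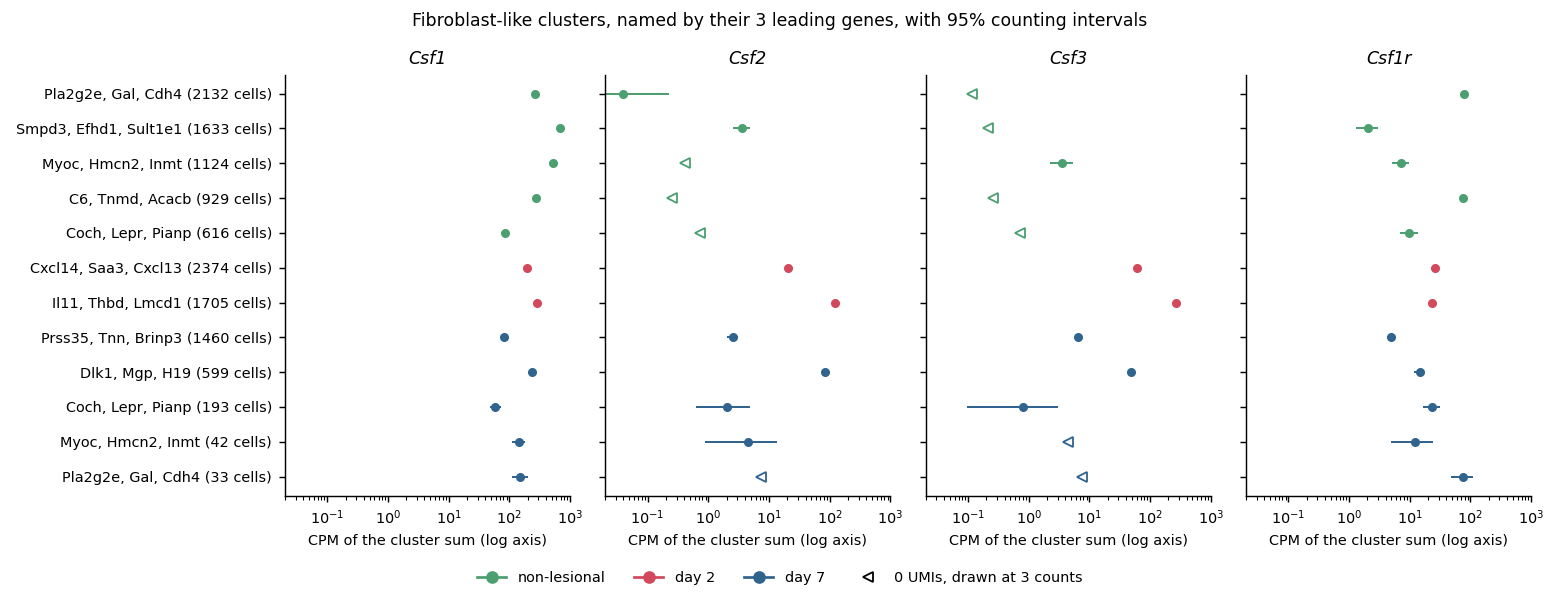
Levels (CPM of the cluster sum, log axis) of the 3 ligands and Csf1r in fibroblast-like clusters, each row a cluster in 1 library with its number of cells, with 95% counting intervals and open triangles for 0 UMIs at the level of 3 counts; intervals below 0.02 CPM run off the axis. The cluster led by Il11 at day 2 has the highest Csf2 (121 CPM) and Csf3 (265 CPM), and Csf1r in non-lesional skin is near 80 CPM in 2 clusters and 10 CPM or less in the others.

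Csf1r, the receptor for Csf1 and IL-34, was highest in monocyte- or macrophage-like cells in non-lesional skin and at day 7. At day 2 the interval of this class overlapped that of dendritic-like cells. The Csf1r level of monocyte- or macrophage-like cells was lower in wounded than in non-lesional skin. Non-lesional skin gave 206 UMIs in 43 of 49 such cells (906 CPM, 786 to 1038), day 2 gave 89.9 CPM (70.9 to 112) and day 7 gave 289 CPM (269 to 310). The day 7 level was 3.21 times (2.54 to 4.12) the day 2 level, and this ratio was 1.62 when each cell was assigned by its own markers and 2.25 without the day 7 cluster led by Atp6v0d2. Different clusters made up the class: one led by Retnla, Folr2 and Cd209f in non-lesional skin, one led by Pf4, Arg1 and Ifnb1 at day 2, and at day 7 the latter (284 cells, 202 CPM) with one led by Atp6v0d2, Acp5 and Clec12a (33 cells, 582 CPM). The class of 49 cells was too small for a planned ratio to non-lesional skin.

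Finer clustering of the myeloid cells separated the Csf1r levels further. The non-lesional sub-cluster led by Cd209f, Retnla and Lyve1, genes of resident perivascular macrophages, had 760 CPM (662 to 868) in 63 cells and 3884 CPM of the complement gene C1qa. A day 7 sub-cluster of 30 cells led by Slc9b2, Mt3, Ctsk and Atp6v0d2 had 577 CPM (519 to 640), with 4719 CPM of the phosphatase gene Acp5, and one of 34 cells led by Cd207, the langerin gene of Langerhans cells, had 518 CPM (448 to 597). The day 7 sub-cluster led by Syngr1, Gdf15, Abcc3 and Gpnmb had 211 CPM (185 to 240) in 109 cells. The sub-cluster led by Ptges, Serpinb2, Arg1 and Lif, which held most of the myeloid Csf3 outside neutrophils, had 88.1 CPM (63 to 120) in 238 day 2 cells and 167 CPM (127 to 217) in 71 day 7 cells. Csf1r was low in the sub-cluster led by Fscn1, a gene of mature dendritic cells, at 15.1 CPM (7.23 to 27.7) at day 2 and 2.99 CPM (0.362 to 10.8) at day 7. It had 0 UMIs in the 33 day 7 cells of the sub-cluster whose leading genes include Clec9a, a gene of cross-presenting dendritic cells. Dendritic-like cells as a class had 52.2 CPM (37.3 to 71), 84.5 CPM (73.1 to 97.1) and 134 CPM (120 to 150) in non-lesional skin, day 2 and day 7. The make-up of this class differed between libraries. Of its 120 non-lesional cells, 61 belonged to the sub-cluster led by Ear2, Lyz1 and Mgl2, 16 to that led by Cd209f and 15 to one led by the B cell genes Cd79a and Pax5. Of the 550 day 2 cells, 171 belonged to that led by Satb1, 168 to that led by Fscn1, 144 to that led by Cd7 and 55 to that led by Hbb-bs and Gatm, which includes Clec9a. At day 7 the sub-clusters led by Satb1, Cd7, Hbb-bs and Cd207 held 77, 69, 33 and 34 of 331 cells, and most of the rest lay in that led by Fscn1. Dendritic-like levels therefore compare cells of different sub-clusters between non-lesional skin and the wound. Without the sub-clusters led by Cd79a and Cd209f, the ratio of Csf1r to non-lesional skin was 2.46 (1.59 to 3.97) in place of 1.62 at day 2 and 3.91 (2.56 to 6.26) in place of 2.58 at day 7.

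Fibroblast-like cells also had Csf1r UMIs, a gene best known from macrophages. Their level was 48.6 CPM (46.9 to 50.4) in non-lesional skin, 24.8 CPM (23.9 to 25.7) at day 2 and 7.9 CPM (7.25 to 8.59) at day 7. In non-lesional skin the UMIs were uneven between clusters: 79.7 CPM (76.3 to 83.2) in the cluster led by Pla2g2e and 76.2 CPM (71.3 to 81.4) in that led by C6, against 2.05 CPM (1.37 to 2.94) in that led by Smpd3, 7.14 CPM (5.33 to 9.36) in that led by Myoc and 9.84 CPM (7.06 to 13.4) in that led by Coch. The cluster with the highest Csf1 had the least Csf1r, but the one with the lowest Csf1, led by Coch, was also low in Csf1r. Of the cells of the Pla2g2e cluster, 54.2% had a Csf1r UMI (7.46% after thinning), against 0.23% of lymphoid-like cells (0.234%), 2.09% of keratinocyte-like cells (0.263%) and 0 of 234 pericyte or smooth muscle-like cells, which allows up to 1.28% of cells with a UMI, not of cells expressing the gene. Median depths of these groups were 11891, 3422.5, 16844 and 5302.5 UMIs.

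Macrophage transcripts were rare in non-lesional fibroblast-like cells and less so at day 7. C1qa was at 0.728 CPM in non-lesional fibroblast-like cells, and 6221 of the 6445 cells had no UMI of C1qa, C1qb, Adgre1, Cd68, Lyz2 or Ptprc. Csf1r was at 48.5 CPM in those 6221 cells (26.3% of cells) and at 52.3 CPM in the other 224 (33%). At day 2, 471 of 4113 cells had at least 1 of these transcripts, and Csf1r was seen in 41.6% of them and in 35.7% of the rest. At day 7, 642 of 2373 cells had one, and the shares were 18.5% and 14%. The Csf1r level was 24.7 CPM in day 2 cells without one of these transcripts and 25.5 CPM in those with one. At day 7 the levels were 7.47 and 8.69 CPM. A cell with no UMI of these 6 genes can still hold RNA from other cells. The part of such RNA in the fibroblast-like Csf1r levels was not tested. The neighbouring gene Pdgfrb ends 15536 bases upstream of Csf1r on the same strand and was at 86.3 CPM in non-lesional fibroblast-like cells. Pdgfrb was higher, at 218 CPM, in non-lesional pericyte or smooth muscle-like cells, which had 0 Csf1r UMIs, and it was at 103 CPM in the cluster led by Pla2g2e and 139 CPM in that led by Coch. Any part of Pdgfrb transcripts in the Csf1r UMIs was not tested.

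Csf2ra, the binding chain of the GM-CSF receptor, was found in all 3 myeloid classes of the wound. Neutrophil-like cells had 320 CPM (296 to 345) at day 2 and 447 CPM (365 to 542) at day 7, a ratio of 1.4 (1.12 to 1.72). Monocyte- or macrophage-like cells had 170 CPM (144 to 200) and 158 CPM (144 to 174), a ratio of 0.93 (0.768 to 1.13). Dendritic-like cells had 270 CPM (234 to 309) in non-lesional skin, 126 CPM (112 to 142) at day 2 and 140 CPM (126 to 156) at day 7. The monocyte- or macrophage-like intervals overlapped, and the dendritic-like level was highest in non-lesional skin, at 2.13 times (1.78 to 2.56) the day 2 level, a difference that was not 2-fold with each cell classed by its own markers or with doublets kept. In non-lesional skin the sub-cluster led by Ear2, Lyz1 and Mgl2 had 336 CPM (286 to 392) from 160 UMIs in 61 cells, and neither wound library had 30 cells of it. Fibroblast-like cells had 2.23, 6.27 and 7.56 CPM, and lymphoid-like cells had 4.32, 11 and 7.21 CPM.

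Csf2rb, the shared signalling chain, was highest in mast or basophil-like cells, followed in the wound libraries by dendritic-like cells. Mast or basophil-like cells, whose growth depends on IL-3 in culture, had 43 UMIs in 17 of 36 non-lesional cells, 90 in 28 of 33 day 2 cells and 105 in 24 of 32 day 7 cells, which correspond to 494, 903 and 820 CPM. In dendritic-like cells the level was 99.1 CPM (78.1 to 124) in non-lesional skin, 394 CPM (369 to 420) at day 2 and 544 CPM (515 to 574) at day 7. Csf2rb and Csf2ra thus ordered the 3 libraries differently in dendritic-like cells, in a class whose make-up differed as given above. Neutrophil-like cells had 193 CPM (175 to 213) at day 2 and 443 CPM (361 to 537) at day 7, a ratio of 2.29 (1.82 to 2.85). Monocyte- or macrophage-like cells had 155 CPM (130 to 184) and 129 CPM (116 to 143), a ratio of 0.83 (0.677 to 1.02) whose interval includes 1. Endothelial-like cells had 32 UMIs in 17 of 34 non-lesional cells (139 CPM, 95.4 to 197, where dendritic-like cells had 99.1) and 209 CPM (187 to 233) in 133 day 7 cells, against 3.22 CPM in lymphatic endothelial-like and 0.887 CPM in fibroblast-like cells of day 7.

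Among sub-clusters, the Cd207-led cells of day 7 had 1186 CPM of Csf2rb (1079 to 1302), and those led by Satb1 and Tnip3 had 611 CPM (557 to 669) at day 2 and 726 CPM (657 to 801) at day 7. The mature dendritic sub-cluster led by Fscn1 had 355 CPM (311 to 403) and 379 CPM (334 to 429), where Csf1r was nearly absent. The Csf2rb counts carry an uncertainty, because the adjacent gene Csf2rb2, which encodes an IL-3-specific beta chain in mice, is a near copy 20030 bases away. Of the 31-base words of the longest Csf2rb transcript, 28% were also present in Csf2rb2, and 2.78% of those in its last 1000 bases, the end that a 3′ library reads. Csf2rb2 itself was at 26.1, 111 and 115 CPM in dendritic-like cells of the 3 libraries and at 97.3 CPM in day 7 endothelial-like cells.

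Csf3r, the G-CSF receptor, was largely a transcript of neutrophil-like cells. They had 15 UMIs in 5 of 6 non-lesional cells, 530 CPM (499 to 562) at day 2 and 846 CPM (732 to 974) at day 7. Monocyte- or macrophage-like cells had 23.3 CPM (14.3 to 36.1) and 19.3 CPM (14.4 to 25.4) in the wound libraries, and fibroblast-like cells had 1.58 and 0.393 CPM. The neutrophil-like intervals of day 2 and day 7 did not overlap, and their ratio was 1.6 (1.36 to 1.86). A UMI was found in 33.9% and 49.5% of thinned neutrophil-like cells, against 0.165% of thinned day 7 lymphoid-like cells, whose median depth was 2302.5 UMIs. Thinning left 808 and 111 neutrophil-like cells, because most were shallower than 1000 UMIs at day 2.

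Within neutrophil-like cells, Csf3r and Csf1 ordered the sub-clusters differently. The day 2 sub-cluster led by Pglyrp1, Mmp8 and Ly6g, granule and surface genes of mature neutrophils, had 972 CPM of Csf3r (805 to 1164) and 264 CPM of Csf1 (180 to 372) in 95 cells. The one led by Lcn2, Chil1 and Retnlg had 554 CPM of Csf3r (508 to 604) and 399 CPM of Csf1 (360 to 441) in 878 cells. That led by Csf1 itself with Hcar2 and Sgms2 had 458 CPM of Csf3r (416 to 502) and 894 CPM of Csf1 (835 to 956) in 1041 cells. At day 2 the sub-cluster with most Csf3r thus had least Csf1, and Csf1 is named there as a leading gene of the cluster, not as a finding about it. At day 7 the sub-cluster led by Csf1 held 137 of the neutrophil-like cells and had 905 CPM of Csf3r (768 to 1059).

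**Figure D4:**
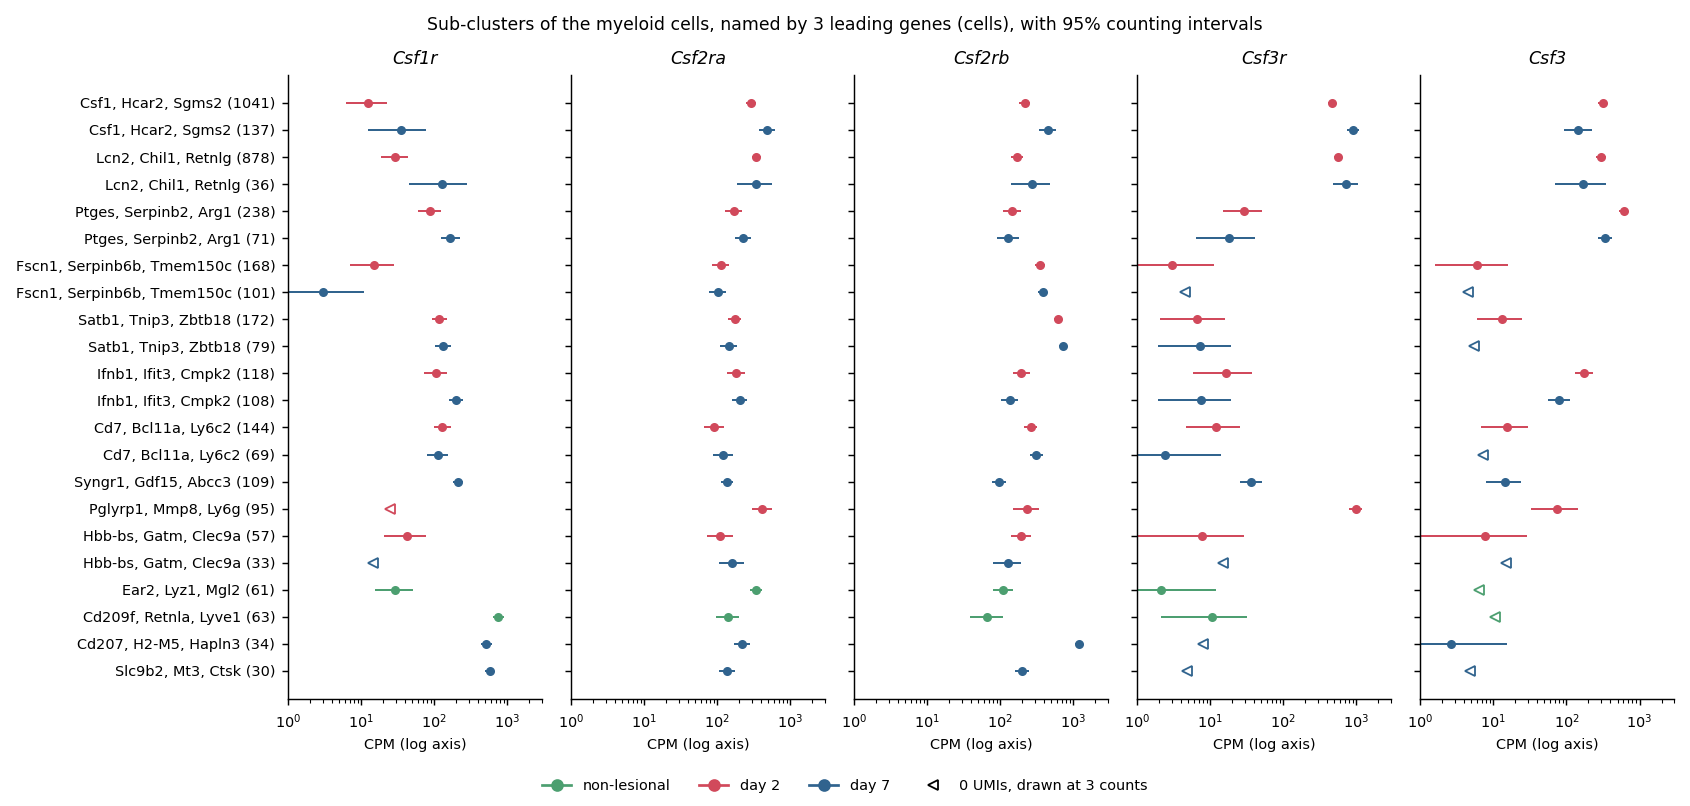
Levels (CPM, log axis) of the 4 receptor genes and Csf3 in myeloid sub-clusters of at least 30 cells in a library, each row named by 3 leading genes with its number of cells, with 95% counting intervals and open triangles for 0 UMIs at the level of 3 counts. Csf3r is high in the 3 neutrophil-like sub-clusters (458 to 972 CPM at day 2), Csf1r in the non-lesional sub-cluster led by Cd209f (760 CPM), and Csf3 in the sub-cluster led by Ptges (606 CPM at day 2).

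How often both chains of the GM-CSF receptor were seen in the same cell differed between classes and libraries. In day 2 neutrophil-like cells, 53.5% had a UMI of at least 1 of the 4 receptor genes and 5.06% had both Csf2ra and Csf2rb. In dendritic-like cells both chains were seen in 22.5%, 22.2% and 37.8% of cells of non-lesional skin, day 2 and day 7, and in monocyte- or macrophage-like cells in 6.12%, 8.89% and 30.6%. These shares were not thinned. Median depths were 5905, 3932 and 6518 UMIs in dendritic-like and 4747, 1851 and 5762 UMIs in monocyte- or macrophage-like cells. In the latter, the day 7 over day 2 ratios of the levels were 0.93 for Csf2ra and 0.83 for Csf2rb. The part of depth in these shares was not tested. Mast or basophil-like cells had Csf2rb without Csf2ra in 17 of 36, 27 of 33 and 22 of 32 cells. Absence of a UMI in such shallow cells does not show absence of the chain.

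Each pair of libraries was also compared over the 7 genes, counting those at least 2-fold apart among those with at least 10 UMIs over the pair. In fibroblast-like cells 4 of 7 (Csf2, Csf3, Csf2ra and Csf3r) were higher by this measure at day 2 than in non-lesional skin, against 28.6% of 16119 genes, and none was lower, against 19.0%. Csf1r, at 0.51 times the non-lesional level, was just short of this measure. TMM and median-of-ratios factors moved its log2 ratio of -0.97 by -0.19 and -0.20, so that it was lower by this measure with either. Day 7 against non-lesional skin gave 5 higher (the same 4 and Csf2rb) against 28.6% of 15999 genes, and 2 lower (Csf1 and Csf1r) against 12.8%. Csf2rb, with 27 and 61 UMIs, was no longer counted with TMM or median-of-ratios factors. Day 7 against day 2 gave 5 lower (Csf1, Csf2, Csf3, Csf1r and Csf3r), where 7.88% of 16272 genes were lower, and none higher, where 16.5% were. The share of members lower at day 7 than at day 2 was therefore well above that of all genes. The Csf3r ratio to non-lesional skin rests on 4 non-lesional UMIs. Neutrophil-like cells, of which there were 6 in non-lesional skin and 2037 at day 2, had far higher levels of these receptors. Day 2 fibroblast-like cells had Csf3r at 0.298% and Csf2ra at 1.96% of the neutrophil-like level, and the neutrophil genes S100a8, S100a9 and Retnlg at 0.102% to 0.178%. The part of stray RNA in the Csf2ra and Csf3r calls was not tested. Csf2ra, Csf2rb and Csf3r were at most 7.56 CPM in fibroblast-like cells of any library.

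In neutrophil-like cells 6 genes had enough UMIs, and between day 7 and day 2 there were 2 higher (Csf1r and Csf2rb, 16.9% of 7381 genes) and 1 lower (Csf3, 9.24%). That count of 3 was 1 when cells had to have at least 500 genes. The neutrophil-like Csf1r ratio rests on 12 day 7 and 42 day 2 UMIs. Monocyte- or macrophage-like cells gave 1 higher at day 7 (Csf1r, 18.3% of 10146 genes) and 2 lower (Csf2 and Csf3, 7.64%). In dendritic-like cells 4 of 6 counted genes were higher at day 2 than in non-lesional skin, against 20.8% of 9863 genes. These were Csf1, Csf3, Csf2rb and Csf3r. Only 1 was lower (Csf2ra, against 11.1%), and not with each cell classed by its own markers or with doublets kept. With TMM or median-of-ratios factors, 3 were higher and 1 lower. Against non-lesional skin, day 7 gave 3 of 5 higher (Csf1, Csf1r and Csf2rb, 18.0% of 10147 genes) and none lower (8.58%). The dendritic-like Csf3r and Csf1 ratios rest on 3 and 1 non-lesional UMIs and that of Csf3 is a bound, at least 5.59-fold against 3 counts over the class. All these dendritic-like counts compare libraries whose cells lay in different sub-clusters. Without the sub-clusters led by Cd79a and Cd209f there were 5 higher and 1 lower at day 2, and 3 higher and 1 lower at day 7.

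**Figure D5:**
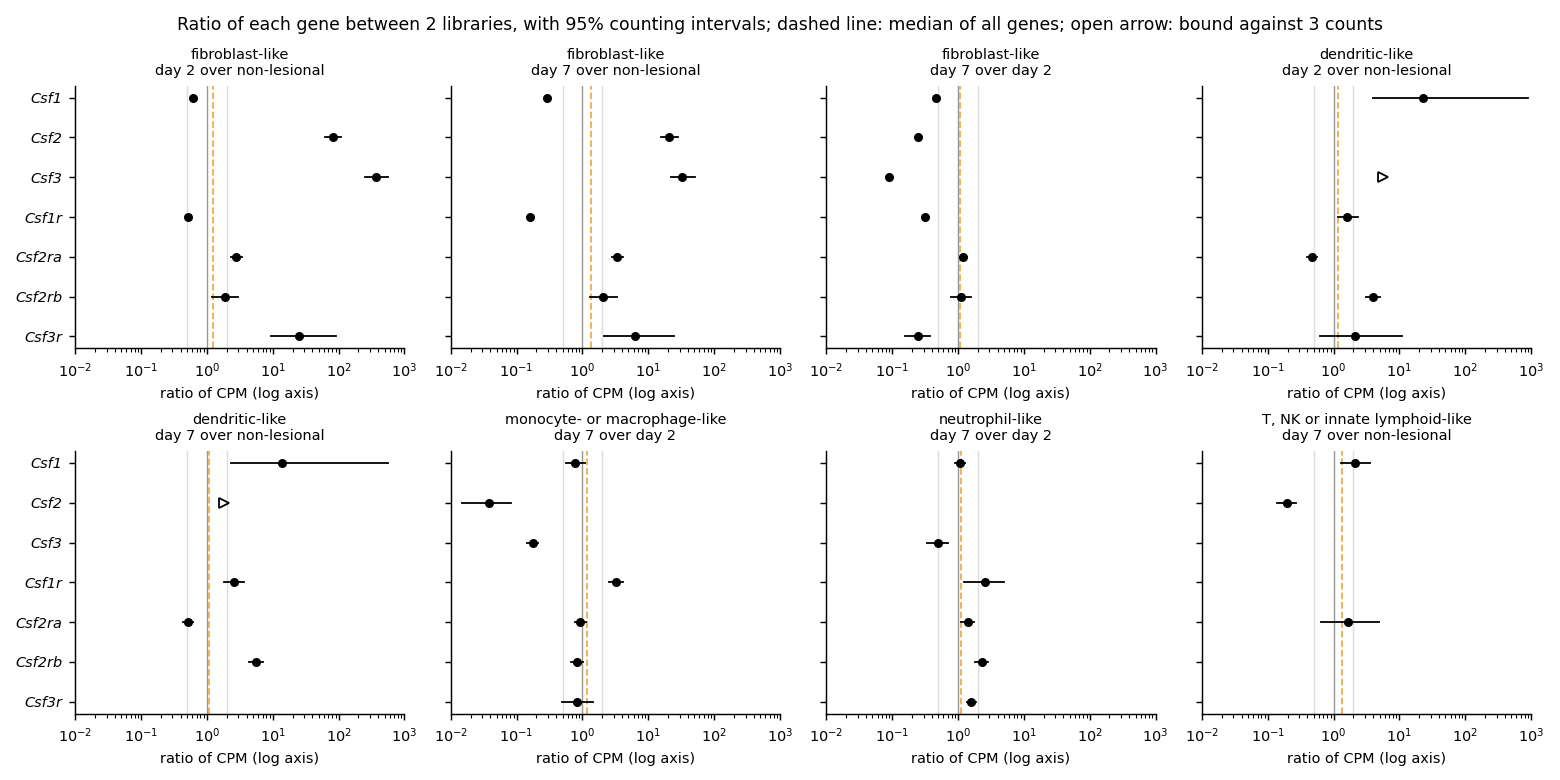
Ratio of CPM between 2 libraries (log axis) for each gene with at least 10 UMIs over the pair, in 8 panels of class and pair, with 95% counting intervals; grey lines mark 0.5, 1 and 2, the dashed line the median of all genes and open arrows bounds against 3 counts. In fibroblast-like cells Csf2 and Csf3 lie far above 2 at day 2 over non-lesional skin (82.2 and 373) and Csf1 and Csf1r lie below 1.

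Genes around these ligands and receptors were followed in 3 lists. The list on induction of colony stimulating factors held genes of IL-1, TNF, IL-17, their receptors and NF-kappaB and C/EBP factors. It also held Zc3h12a and Zfp36, so its counts are not of inducers alone. In monocyte- or macrophage-like cells 6 of 11 counted genes were at least 2-fold lower at day 7 than at day 2, against 7.64% of all genes. None was higher, against 18.3%. The list had a median log2 ratio of -1.21 there, against 0.23 over all genes. Its largest members there were Il1b, at 12444 CPM at day 2 and 3263 CPM at day 7, and Tnf, at 9698 and 4061 CPM. Il1a, the alarmin form of IL-1, was at 814 and 211 CPM. These 6 genes of the list and the ligands Csf2 and Csf3 were thus lower at day 7 in this class. Of its cells, most at day 2 belonged to the sub-cluster led by Ptges, which had 238 cells at day 2 and 71 at day 7. Neutrophil-like cells had Il1b at 14320 and 14554 CPM and Tnf at 3474 and 1033 CPM.

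In fibroblast-like cells, 5 of 12 counted genes of the list on induction were higher at day 2 than in non-lesional skin, against 28.6% of all genes. None was lower, against 19.0% (median log2 ratio 0.68 against 0.29). Il1r1, the receptor for IL-1, was at 74 CPM in non-lesional skin, 155 CPM at day 2 and 91.5 CPM at day 7. The NF-kappaB subunit gene Rela was at 33.1 and 75 CPM in the first 2 of these libraries. At day 7 against non-lesional skin 4 of 13 were higher, a share near the 28.6% of all genes, and 1 lower against 12.8% (median 0.31 against 0.43), and Nfkb1 was at 149 against 328 CPM. In lymphoid-like cells of non-lesional skin Il17a was at 728 CPM and Il17f at 219 CPM, against 162 and 29.4 CPM at day 2 and 129 and 13 CPM at day 7. These lymphoid-like levels had the same order as that of Csf2, with the highest in non-lesional skin.

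The list of receptor signalling and myeloid regulator genes had, in fibroblast-like cells, 7 of 25 higher and 2 lower at day 2 than in non-lesional skin, against 28.6% and 19.0% of all genes (median log2 ratio 0.17 against 0.29), including the transcription factor gene Klf4, at 186 against 1708 CPM, and the kinase gene Jak2, at 84.3 against 31.3 CPM. Dendritic-like cells had Jak2 at 140 CPM in non-lesional skin and 481 CPM at day 2, and Irf8, a transcription factor of dendritic cell development, at 145 and 575 CPM. The third list held other haematopoietic ligands and receptors, of which 3 of 5 counted were higher in dendritic-like cells at day 2 than in non-lesional skin and none lower, against 20.8% and 11.1% of all genes (median log2 ratio 2.09 against 0.20). They were Flt3, the receptor tyrosine kinase of dendritic cell precursors, at 52.2 and 241 CPM, Kit at 26.1 and 121 CPM, and Csf2rb2. Of these, Flt3 is among the marker genes used to name the dendritic-like class. Flt3 is also a leading gene of the mature dendritic cluster, which had 1 non-lesional and 167 day 2 cells. In lymphoid-like cells Il5, a cytokine whose receptor uses the chain encoded by Csf2rb, was at 21 CPM in non-lesional skin, 187 CPM at day 2 and 1.44 CPM at day 7.

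Across 23 profiles of class and library with at least 50 cells, the genes most like each member in log2(CPM + 1), by Pearson r and as a description only, were sought among 7576 genes. The profiles share libraries and depth. Csf3 was most like Cxcl3, which encodes a neutrophil chemokine (r = 0.902), Noct (0.870) and Slfn4 (0.850). Csf2 was most like Tnfsf11 (0.742), Il1rl1 (0.740) and Slamf1 (0.713), and Csf1 most like Sepn1 (0.863), Steap4 (0.803) and Fam114a1 (0.789). Csf1r was most like AI607873 (0.833), Clec4n (0.830) and Sirpa (0.817), and Csf2ra most like Mefv (0.948), Fgr (0.946) and Pira2 (0.943). Csf2rb was most like its near copy Csf2rb2 (0.943), Bst1 (0.928) and Mctp1 (0.910), and Csf3r most like Trpm2 (0.967), Cyp4f18 (0.964) and Trem3 (0.960).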

How the data were processed

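Gene counts per cell barcode (unique molecular identifiers, UMIs) were used as deposited by the authors, per the file headers an output of Cell Ranger 5.0.0, while the submitters' processing notes name Cell Ranger 3.0.2, Seurat 3.0 and mm10. Libraries were Chromium 3′ v2 sequenced on an Illumina NovaSeq, per the labels' protocols. Barcodes with under 200 genes (192, 390 and 543 for non-lesional skin, day 2 and day 7) or over 10% mitochondrial UMIs (368, 372 and 1632) were removed. Doublets were removed by Scrublet score at 0.8% per 1000 barcodes (894, 553 and 301), because the caller's own threshold marked 373, 1 and 0. With scanpy 1.11.5 (Python 3.11.15), 2000 variable genes without the 7 members, 30 components and 20 neighbours gave 37 Leiden clusters (leidenalg 0.10.2, resolution 1), named from marker lists of which 3 markers had no matching symbol. Counts were summed per class and library. Levels have exact Poisson, shares Clopper-Pearson and ratios exact conditional binomial 95% intervals (scipy 1.17.1). UMIs of 1 cell are not independent, so these intervals are too narrow. A gene was counted in a pair with at least 10 UMIs and classes of at least 50 cells, and a count of 0 was bounded by 3 counts. Classes under 50 cells, planned as counts only, also carry a level. Only the ratio and its interval were tested on simulated data, as Poisson class sums for fibroblast-like cells at day 2 over non-lesional skin. The interval covered the set fold in 84% of genes set at 2-fold and 95.1% of genes set at no difference. Poisson sums hold no spread between cells, so that test could not show its effect. Alternatives were other class rules, at least 500 genes per cell, doublets kept, thinning, a pseudocount, and scaling with R 4.3.3 and edgeR 4.0.16. The members and lists were chosen with earlier results of these data known. Named genes are the members, list genes by size of ratio and the 3 most similar genes, while leading genes and other genes given as context were chosen after their values were seen.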

Additional observations from a re-analysis of the deposited data

Results flagged for a closer look

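Several members differed between libraries in opposite directions in different cell classes, and with 1 library per group none of these differences between classes was tested. At day 2 over non-lesional skin, the Csf2 ratio was 82.2 in fibroblast-like and 0.353 in lymphoid-like cells. The Csf2ra ratio for that pair was 2.81 in fibroblast-like cells, 0.469 in dendritic-like cells and 2.55 in lymphoid-like cells, the last from 3 and 7 UMIs. At day 7 over non-lesional skin, Csf1 had a ratio of 0.287 in fibroblast-like, 13.8 in dendritic-like (1 non-lesional UMI) and 2.12 in lymphoid-like cells. Csf2 had 20.7 in fibroblast-like, 0.193 in lymphoid-like and 9.14 in keratinocyte-like cells, where it had 6 and 4 UMIs. Csf1r had 0.162 in fibroblast-like and 2.58 in dendritic-like cells. Between day 7 and day 2, Csf2 had a ratio of 0.251 in fibroblast-like, 0.0379 in monocyte- or macrophage-like and 2.36 in dendritic-like cells, where the 17 day 7 UMIs came from 1 cell. Csf1r had 0.319 in fibroblast-like, 2.58 in neutrophil-like and 3.21 in monocyte- or macrophage-like cells for the same pair. The neutrophil-like Csf1r ratio (1.24 to 4.99) came from 12 day 7 and 42 day 2 UMIs.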

How the results depend on the processing

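Of 84 recomputed ratios, 60 stayed within the counting interval of the reported value, 24 moved beyond it and none changed its side of 1 where the reported value was at least 2-fold from 1. The cause of these shifts was not tested. No paired analysis was possible because each group is 1 library, and no library could be left out. In fibroblast-like cells at day 2 over non-lesional skin, the Csf3 ratio of 373 was 206 thinned and 110 with a pseudocount. The Csf1 ratios of 0.625 at day 2 and 0.287 at day 7 were 0.66 and 0.299 with each cell classed by its own markers, 0.548 and 0.22 with TMM factors, 0.543 and 0.217 with median-of-ratios factors, 0.556 and 0.278 as means of per-cell shares, 0.512 and 0.253 thinned, and 0.813 and 0.373 without the cluster led by Smpd3, an alternative chosen after seeing the data. For monocyte- or macrophage-like cells at day 7 over day 2, Csf1r was 1.62 by own markers and 2.25 without the cluster led by Atp6v0d2 (also chosen after seeing the data), and Csf2rb was 0.608 by own markers, 1.04 at resolution 2 and 1.06 thinned. The planned Csf1r ratio of that class at day 2 over non-lesional skin had no main value, because of the 49 cells, and was 0.185 by own markers and 0.241 with doublets kept. In neutrophil-like cells Csf3r was 1.19 by own markers, 1.28 with TMM and 1.26 with median-of-ratios factors, and Csf2rb was 1.75 with at least 500 genes and 1.81 with median-of-ratios factors. The count of members at least 2-fold apart was 1 in place of 3 in neutrophil-like cells with at least 500 genes. In lymphoid-like cells it was 1 in place of 3 at day 2 over non-lesional skin (own markers and both scalings), 1 in place of 2 at day 7 over non-lesional skin (500 genes and both scalings; 4 with doublets kept), and 3 in place of 1 at day 7 over day 2 (own markers, doublets kept, or no filter beyond 1 UMI). In dendritic-like cells at day 2 over non-lesional skin, the lower call of Csf2ra was lost with own markers and with doublets kept, and at day 7 over non-lesional skin in fibroblast-like cells the higher call of Csf2rb was lost with both scalings. Leaving out the dendritic-like cells in the sub-clusters led by Cd79a and Cd209f was also chosen after seeing the data. TMM factors moved all log2 ratios by -0.19 and -0.39 in fibroblast-like cells (day 2 and day 7 over non-lesional skin) and by -0.32 in neutrophil-like cells. With both scalings a lower call of Csf1r was gained in fibroblast-like cells at day 2 over non-lesional skin. Depth limits the shares in neutrophil-like cells, and small classes limit every vessel and mast cell value.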
